A study of Danio rerio with 8 samples.

Results

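The transcripts of 44 genes whose proteins process 18S ribosomal RNA and build the 40S ribosomal subunit were measured by RNA sequencing in sorted zebrafish endothelial cells. The genes were taken from a list of names that sets no threshold on a measured value, though it was drawn up with earlier results of these data known, and each of the 44 was found under 1 identifier among the 32520 genes of the count table. Embryos were compared at 3 days post fertilisation (dpf), with 4 libraries from ddx21 mutants and 4 from embryos labelled as siblings. All embryos carried the reporters Tg(fli1a:nEGFP), a nuclear green protein under control of the endothelial gene fli1a, and Tg(5.2lyve1b:DsRed), a red protein under control of the venous and lymphatic gene lyve1b. Cells positive for both colours were sorted to collect venous and lymphatic endothelium. The labels give neither the ddx21 allele, nor the genotype of the siblings, nor how many embryos or clutches made up a library, and the p-values therefore speak only of the spread among these 8 libraries, some of it possibly technical.

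In the nucleolus a long precursor RNA is folded, cut and modified to give the rRNA of both ribosomal subunits. The small subunit processome assembles on the precursor as it is transcribed, around the U3 small nucleolar RNA, and holds the future 18S rRNA while its ends are cut and its bases are modified. What leaves the nucleolus is a pre-40S particle, which is finished in the cytoplasm by a smaller set of late factors. The roles given here come from work in budding yeast and human cells. Ddx21, a helicase that resides in the nucleolus, acts in ribosome production, and the series title ties it to ribosome biogenesis, to signalling through p53 and p21 and to lymphatic growth driven by Vegfc.

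The libraries held 38459219 to 51173007 counted reads, and each of the 44 genes had between 54 reads (dimt1l in sibling 4) and 15102 reads (wdr43 in mutant 3) in a library. The ddx21 transcript itself measured 233, 266, 170 and 217 CPM (reads per 1e6 reads of the library, after TMM scaling) in mutants 1 to 4, against 245, 364, 337 and 301 CPM in siblings 1 to 4. It was lower in the mutant of every same-numbered pair, but mutant 2 lay above sibling 1 and the groups overlapped. The difference, a log2 fold change of -0.50 (SE 0.21, 95% interval -0.96 to -0.03), had an edgeR unadjusted p of 0.039, or 0.023 with the replicate block, and an adjusted p of 0.9995. An exact permutation test of ddx21 alone, two-sided and without the pairs, gave p = 0.057, where the smallest p that 4 against 4 libraries can give is 0.029. Of the markers of the sorted cells, lyve1b measured 443, 475, 575 and 720 CPM in mutants 1 to 4. In siblings 1 to 4 it measured 661, 654, 767 and 808 CPM. The groups overlapped, but lyve1b was lower in the mutant of every same-numbered pair. The endothelial receptor gene kdrl measured 259 to 451 CPM in mutants, against 181 to 547 CPM in siblings. The keratin gene krt4, a marker of epidermis, was also present throughout, with 3094 to 54842 CPM in mutants and 1588 to 26708 CPM in siblings. Sibling 4 stood apart in exocrine pancreas markers, whose sum was 95.5 to 1090 CPM in mutants and 43975 CPM in sibling 4, against 394 to 899 CPM in the other siblings. Gene by gene, 8 of the 8 tested had a log2 fold change below 0 (median -4.66). At an edgeR unadjusted p under 0.05 all 8 were lower (1.67% of all tested genes were), and 6 with the replicate block (2.88% were). The median log2 difference within a pair was -0.38, -2.26, -2.58 and -5.44 in pairs 1 to 4. In pair 1 the mutant was higher for 3 of the 8.

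No gene of the 44 passed the test over all genes. With edgeR's quasi-likelihood test and Benjamini-Hochberg adjustment over 18549 tested genes, 0 genes of the whole table were called at an adjusted p under 0.05 (0.00%), the smallest adjusted p was 0.18, and none of the 44 had an adjusted p below 0.9995. All 44 passed the filter on low counts. At an unadjusted p under 0.05, 5 of the 44 were higher in mutants (11.4%), where the share over all tested genes was 1.33%, and 0 of the 44 were lower, where it was 1.67%. The 5 were wdr3, nat10, utp3, imp3 and rcl1. With the replicate number as a block 6 of the 44 were higher at that p, where 2.98% of all tested genes were, and 0 were lower, where 2.88% were. The log2 fold change was above 0 for 29 of the 44 and the median was 0.15, against 50.2% of all tested genes above 0 and a median of 0.00 over them. Without mutant 1 the median was 0.06, without mutant 4 it was 0.28 and without sibling 2 it was 0.26. The count of 5 was 1 without sibling 1 or sibling 4, 2 without mutant 1, and 3 without mutant 2, mutant 3 or sibling 3. In those runs 0.961% (without mutant 1) to 1.41% (without sibling 1) of all tested genes were higher at that p. The 44 changes ran from -0.59 for utp20 (-1.15 without mutant 1 and -0.28 without mutant 4) to 0.86 for emg1. The standard error of a single gene's log2 fold change ran from 0.17 to 0.73. Its median was 0.31 over the 44, against 0.66 over all tested genes. A change of the same size therefore passes more readily among the 44, and the shares over all tested genes are not a like-for-like background. The 44 also share the same libraries, so the counts are not independent results. For 26 of the 44 the 95% interval lay inside a 2-fold change in either direction, and for the other 18 it did not. In bulk cells a lower share of one cell type and less RNA per cell cannot be told apart, and this touches each difference given here.

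**Figure D1:**
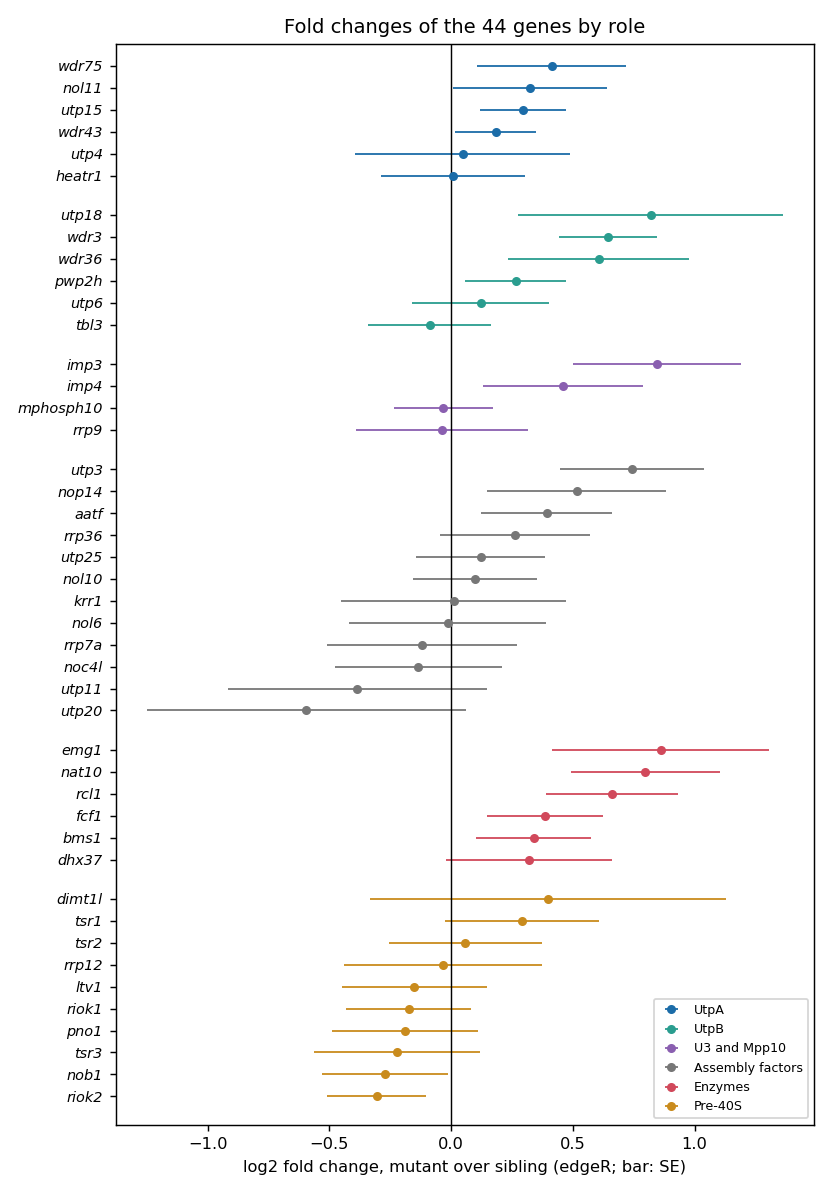
Log2 fold changes, mutant over sibling, of the 44 genes by role, as fitted by edgeR over 4 mutant and 4 sibling libraries, with bars of 1 SE. The 6 enzyme genes and the 6 UtpA genes lie at or right of 0, whereas 7 of the 10 pre-40S genes lie left of it.

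Comparing mutant and sibling libraries of the same replicate number gave a further view of direction. These pairs were taken from correlations over all tested genes (0.18 to 0.30, against -0.27 to 0.15 for libraries of different numbers). Over the 44 genes alone same-numbered libraries were only weakly correlated (0.01 to 0.16). Libraries of different numbers ran from -0.36 (mutant 2 with sibling 3) to 0.24 (mutant 2 with sibling 4), so the 44 alone do not show the pairing. In 13 of the 44 genes (29.5%) the mutant was higher in 4 of 4 pairs, where 8.0% of all tested genes were so. The 44 have smaller errors than all tested genes (median SE 0.31 against 0.66), so such shares are not like for like. In 0 of the 44 it was lower in 4 of 4 pairs, against 8.42% of all tested genes. All 4 mutant libraries lay above all 4 sibling libraries for wdr3 and nat10 (4.55% of the 44, against 1.42% of all tested genes), and all mutants lay below all siblings for 0 of the 44, against 1.83% of all tested genes. The 13 genes were wdr3, nat10, utp3, imp3, rcl1, emg1, utp15, fcf1, utp18, bms1, imp4, pwp2h and wdr43. The pairs did not contribute alike. In pair 1 the mutant was higher for 36 of the 44, in pair 3 for 31, in pair 2 for 22 and in pair 4 for 21. Over the 44 the median log2 difference within a pair was 0.43 in pair 1, 0.03 in pair 2, 0.29 in pair 3 and -0.11 in pair 4. Over all tested genes the same medians were -0.10, 0.01, 0.01 and 0.00.

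Enzymes and their partners had a median log2 fold change of 0.52 and UtpB one of 0.44, the highest medians of the 6 roles. Their order turned without sibling 1, where the enzymes stood at 0.49 and UtpB at 0.53, and in replicates 3 and 4 alone, where the enzymes stood at 0.415 and UtpB at 0.607. In replicates 1 and 2 alone the UtpB median was 0.13, below that of UtpA at 0.27, and the enzymes stood at 0.45. The UtpB median was 0.24 without the 3 libraries of lowest quality weight and 0.26 with limma-voom. The enzyme set holds nat10, emg1, fcf1 and dhx37, which modify, cut or unwind the pre-rRNA. It also holds the GTPase gene bms1 and its partner rcl1. It does not hold every enzyme that cuts or modifies 18S rRNA. The late factors given below include nob1 (log2 -0.27, SE 0.26), tsr3 (-0.22, SE 0.34) and dimt1l (0.40, SE 0.73). Roles were chosen with earlier results of these data known, and the medians by role depend on that choice. The 6 genes of the enzyme set all had log2 fold changes above 0, from 0.32 to 0.86, where 50.2% of all tested genes were. At an unadjusted p under 0.05, 2 of the 6 were higher, where 1.33% of all tested genes were. nat10, which acetylates cytidines of 18S rRNA, measured 90.5, 39.1, 38.5 and 42.9 CPM in mutants 1 to 4, against 29.0, 31.7, 32.4 and 28.2 CPM in siblings 1 to 4. The groups did not overlap, though mutant 1 stood far above the other mutants. Its log2 fold change was 0.80 (SE 0.31, edgeR unadjusted p = 0.027), and 0.41 without mutant 1. rcl1, the cyclase-like partner of the GTPase Bms1, measured 96.1, 81.4, 60.5 and 69.7 CPM in mutants, against 44.8, 73.0, 35.1 and 41.5 CPM in siblings. Sibling 2 lay within the range of the mutants and the other siblings lay below it (log2 0.66, SE 0.27, edgeR unadjusted p = 0.035). emg1, which methylates a pseudouridine of 18S rRNA, measured 37.4, 34.3, 44.9 and 19.2 CPM in mutants, against 27.0, 25.8, 15.1 and 6.85 CPM in siblings. Its groups overlapped through mutant 4, which with sibling 4 was the lowest of its group (log2 0.86, SE 0.44, edgeR unadjusted p = 0.081). For fcf1, the nuclease that cuts the precursor at the start of 18S rRNA, the values were 48.4, 68.7, 47.0 and 41.8 CPM in mutants and 36.2, 50.1, 36.4 and 34.8 CPM in siblings. Sibling 2 overlapped the mutants (log2 0.39, SE 0.24, edgeR unadjusted p = 0.13), and without mutant 2 the log2 fold change was 0.22. The GTPase gene bms1 stood at log2 0.34 (SE 0.24). The helicase gene dhx37, whose product releases U3 from the rRNA, stood at 0.32 (SE 0.34) and, alone among these genes, was not higher in the mutant of 4 of 4 pairs.

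Genes of the UtpB complex, which joins the processome after UtpA and is built largely of WD-repeat proteins, had 5 of 6 log2 fold changes above 0. The lowest p of the 44 belonged to wdr3, the vertebrate form of yeast Utp12, with 211, 184, 178 and 172 CPM in mutants 1 to 4, against 138, 143, 104 and 92.5 CPM in siblings 1 to 4. Every mutant library was above every sibling library. The means were 187 ± 17.2 CPM in mutants and 119 ± 24.97 CPM in siblings (SD, n = 4 each), which gave log2 0.64 (SE 0.20, 95% interval 0.20 to 1.09, edgeR unadjusted p = 0.0094). wdr36, the form of yeast Utp21, measured 77.1, 73.5, 53.9 and 90.6 CPM in mutants, against 56.2, 80.8, 34.4 and 22.3 CPM in siblings. Here pair 2 went the other way and the sibling values spanned 3.63-fold (log2 0.61, SE 0.37, edgeR unadjusted p = 0.13). Without sibling 4 the log2 fold change of wdr36 was 0.38, and without sibling 2 it was 0.97. The subunit gene utp18 measured 12.4, 11.3, 7.46 and 7.6 CPM in mutants and 4.16, 9.22, 2.42 and 6.16 CPM in siblings. The mutant was higher in 4 of 4 pairs, and sibling 2 lay above mutants 3 and 4 (log2 0.82, SE 0.54, edgeR unadjusted p = 0.16). Of the others, pwp2h, which encodes the complex's Pwp2 subunit, stood at log2 0.27 (SE 0.21), utp6 at 0.12 (SE 0.28) and tbl3, the form of yeast Utp13, at -0.09 (SE 0.25).

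**Figure D2:**
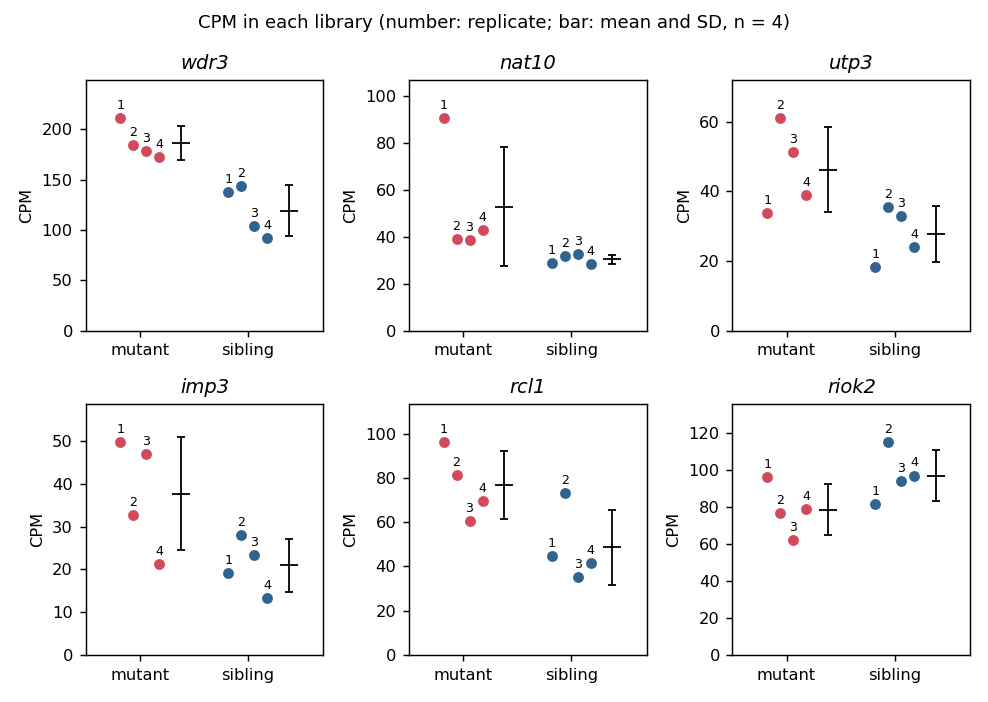
CPM of 6 genes in each library, with mutants on the left of each panel and siblings on the right, the replicate number above each point, and the mean and SD of 4 libraries beside the points. For wdr3 and nat10 every mutant point is above every sibling point, and for riok2 3 of 4 siblings are above the mutant of the same number.

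The UtpA complex binds the nascent precursor first and also bears on its transcription. Its 6 genes lay at log2 fold changes from 0.01 to 0.41, median 0.24, and 0 of the 6 had an unadjusted p under 0.05. Over all tested genes 1.33% were higher and 1.67% lower at that p, so 0 of 6 says little. Without mutant 1 the median was 0.07, and 4 of the 6 were above 0 without mutant 1, mutant 2 or sibling 3. utp15 measured 96.6, 99.1, 76.1 and 95.9 CPM in mutants, against 71.8, 82.9, 71.6 and 73.5 CPM in siblings. Mutant 3 was the one mutant within the range of the siblings (log2 0.29, SE 0.18, edgeR unadjusted p = 0.13). wdr43, the form of yeast Utp5, varied little, with 258 to 291 CPM in mutants and 226 to 278 CPM in siblings, and its 95% interval on the log2 scale was -0.19 to 0.55. Mutant 1 carried the highest value of wdr75 (266 CPM, against 120 to 150 CPM in the other mutants and 81.7 to 150 CPM in siblings; log2 0.41, SE 0.31). The same library was highest for nol11, a partner of Utp4, where mutants 1 to 4 had 162, 92.7, 84.7 and 86.7 CPM and siblings 51.2, 99.8, 69.7 and 119 CPM (log2 0.33, SE 0.32). utp4 itself had 19.6 CPM in mutant 4 and 83.9 to 91.3 CPM in the other mutants, against 42.3 to 97.2 CPM in siblings (log2 0.05, SE 0.44). heatr1, the form of yeast Utp10, was at log2 0.01 (SE 0.30).

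Of the proteins that hold U3 to the precursor, imp3 and imp4 were higher in mutants of 4 of 4 pairs, and mphosph10 and rrp9 were near 0. imp3 measured 49.7, 32.6, 47.0 and 21.4 CPM in mutants 1 to 4, against 19.1, 28.0, 23.4 and 13.3 CPM in siblings 1 to 4. Mutant 4 lay within the sibling range and the other mutants lay above it (log2 0.85, SE 0.34, edgeR unadjusted p = 0.034). imp4 was at log2 0.46 (SE 0.33), with 133 CPM in mutant 1 and 49.9 to 91.2 CPM in the other mutants, against 44.8 to 89.1 CPM in siblings. The third protein of their complex, encoded by mphosph10, stood at log2 -0.03 (SE 0.20, 95% interval -0.49 to 0.42), an interval that holds no 2-fold change. rrp9, a WD-repeat protein of the U3 particle itself, stood at -0.04 (SE 0.35).

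The 12 other assembly factors of the processome were mixed, with 7 of 12 above 0 on the log2 scale and 0.05 as their median. Here utp3, the form of yeast Sas10, measured 33.8, 61.0, 51.2 and 38.9 CPM in mutants, against 18.1, 35.5, 32.9 and 23.9 CPM in siblings. Replicates 2 and 3 were the highest of both groups and each mutant was above its own sibling, while mutant 1 lay below sibling 2 (log2 0.74, SE 0.30, edgeR unadjusted p = 0.031). nop14 followed at log2 0.52 (SE 0.37), and aatf, also known in human cells as a regulator of apoptosis, at 0.39 (SE 0.27). Then came rrp36 (0.26), utp25 (0.12), nol10 (0.10) and krr1 (0.01). On the lower side stood nol6 (-0.01), its partner rrp7a (-0.12), noc4l (-0.13), the partner of nop14, utp11 (-0.38) and utp20 (-0.59). utp20, a large repeat protein, measured 15.2, 8.01, 5.46 and 2.22 CPM in mutants, against 15.1, 18.4, 4.42 and 8.66 CPM in siblings, and the mutant was higher in pairs 1 and 3 and lower in pairs 2 and 4. Its SE was 0.65 (edgeR unadjusted p = 0.38). For utp11 the values were 13.7, 18.4, 16.1 and 3.12 CPM in mutants and 18.5, 8.87, 22.0 and 17.6 CPM in siblings. Mutant 4 was far below the other libraries, and without it the log2 fold change was -0.05, against -0.38 with it (SE 0.53, edgeR unadjusted p = 0.49) and -0.61 without mutant 2. krr1 fanned out in the mutants, from 9.79 CPM in mutant 4 to 51.2 CPM in mutant 1, a 5.23-fold range, against 18.7 to 29.4 CPM in siblings.

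None of the 10 late factors of the pre-40S particle had an unadjusted p under 0.05. Over all tested genes 1.33% were higher and 1.67% lower at that p, so 0 of 10 says little. The late factors had more log2 fold changes below 0 than above it: 3 of the 10 were above 0, and the median was -0.16. The size of the tilt varied with single libraries. Above 0 were 5 of the 10 without sibling 2 (median 0.002), without mutant 4 (median -0.01) or without mutant 3 (median -0.06). Above 0 was 1 of the 10 without mutant 1 (median -0.22) or with limma-voom (median -0.13). It was 2 of the 10 without sibling 3 (median -0.26) or sibling 4 (median -0.13). The median was below 0 in every run but the one without sibling 2. The mutant was higher in 4 of 4 pairs for 0 of the 10, where 8.0% of all tested genes were so. It was lower in 4 of 4 pairs for 0 of the 10, where 8.42% were, so these counts say little. riok2, an atypical kinase that rides on the particle, measured 95.9, 76.7, 62.0 and 78.9 CPM in mutants 1 to 4, against 81.7, 115, 94.0 and 96.9 CPM in siblings 1 to 4. In pairs 2 to 4 the mutant was lower, and in pair 1 higher (log2 -0.31, SE 0.20, edgeR unadjusted p = 0.16). nob1, the nuclease that makes the final cut at the end of 18S rRNA, went the same way as riok2 in each pair. It measured 274, 186, 152 and 180 CPM in mutants and 161, 265, 225 and 306 CPM in siblings. Mutant 1 alone was above its sibling (log2 -0.27, SE 0.26, edgeR unadjusted p = 0.32). The value was -0.47 without mutant 1 and -0.13 without sibling 4. pno1, the partner of Nob1 on the particle, was at log2 -0.19 (SE 0.30). The second kinase gene of the set, riok1, was at -0.17 (SE 0.26), the export and assembly factor ltv1 at -0.15 (SE 0.30), and tsr3, which modifies an 18S base, at -0.22 (SE 0.34). rrp12, which takes part in export of the particle, stood at -0.03 (SE 0.41). Above 0 were tsr1 (0.29, SE 0.32), a GTPase-like protein, tsr2 (0.06, SE 0.31), which escorts a ribosomal protein to the particle, and dimt1l (0.40, SE 0.73), which dimethylates adenosines of 18S rRNA. The dimt1l value had the widest error of the 44, with 26.3, 8.35, 5.47 and 11.0 CPM in mutants and 12.5, 12.7, 12.4 and 1.16 CPM in siblings.

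**Figure D3:**
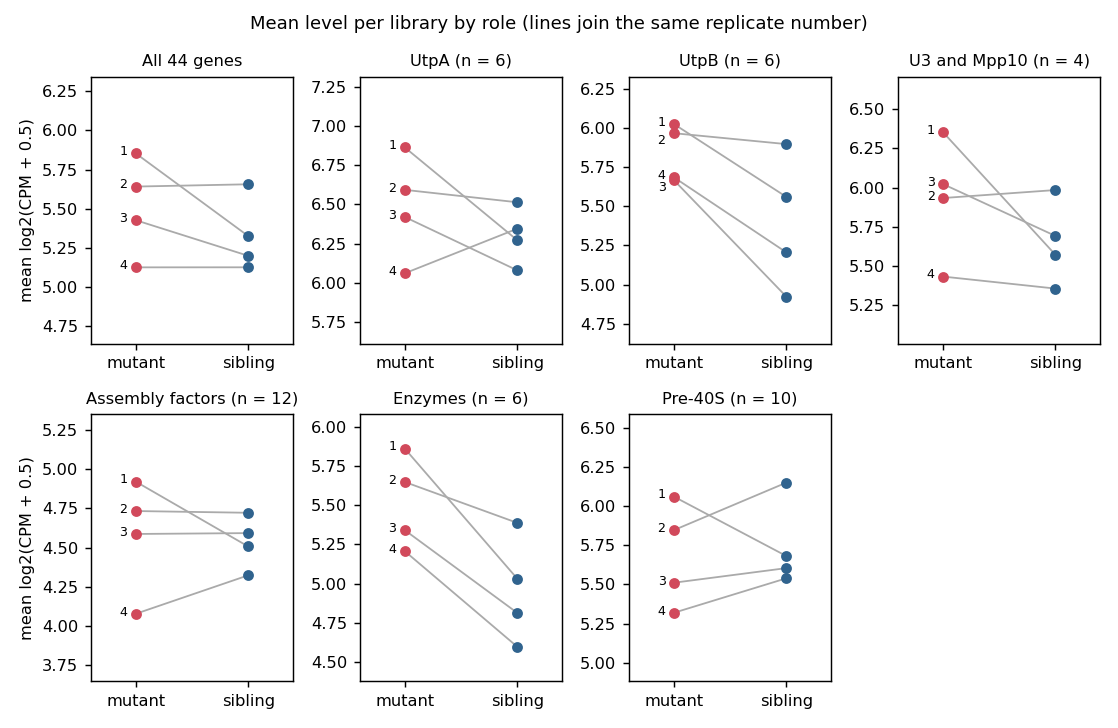
Mean log2(CPM + 0.5) per library over all 44 genes and over the genes of each role, with mutants left of siblings and lines joining libraries of the same replicate number. Every panel spans the same range of log2 units; for the enzymes and UtpB all 4 mutant points are above their siblings, and for the pre-40S genes this holds for replicate 1.

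Averaged over the 44 genes, the mean log2(CPM + 0.5) was 5.85, 5.64, 5.43 and 5.13 in mutants 1 to 4, against 5.33, 5.66, 5.20 and 5.13 in siblings 1 to 4. The groups overlapped, and the difference of the means, 0.18, was smaller than the spread between libraries of a group (SD 0.31 in mutants and 0.23 in siblings, n = 4 each). By role the difference was 0.56 for the enzymes, where mutants 1 to 4 had 5.86, 5.65, 5.34 and 5.21 and siblings 1 to 4 had 5.03, 5.39, 4.81 and 4.60. UtpB gave 0.44, the U3 and Mpp10 proteins 0.28, UtpA 0.18, the assembly factors 0.04 and the pre-40S factors -0.06. For the enzymes and for UtpB the mutant was above its own sibling in 4 of 4 pairs of means, although sibling 2 was above mutants 3 and 4 in both. Whether roles differ from one another was not tested.

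Single libraries stood out across the 44 genes. Mutant 1 held the highest value for 17 of the 44 genes and the lowest for 0. Mutant 4 held the lowest value for 13, and siblings 3 and 4 for 10 each. Sibling 2 was the highest of the 8 for 11 genes. Measured against each gene's own median over the 8 libraries, the typical deviation in log2 units was 0.35 in mutant 1, 0.18 in mutant 2, -0.05 in mutant 3 and -0.16 in mutant 4, against -0.13, 0.16, -0.21 and -0.27 in siblings 1 to 4. Within groups the spread was smaller than over the whole table: the median SD of log2(CPM + 0.5) within the group was 0.39 in mutants and 0.40 in siblings over the 44, against 0.67 in mutants and 0.61 in siblings over all tested genes, which include many with fewer reads.

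**Figure D4:**
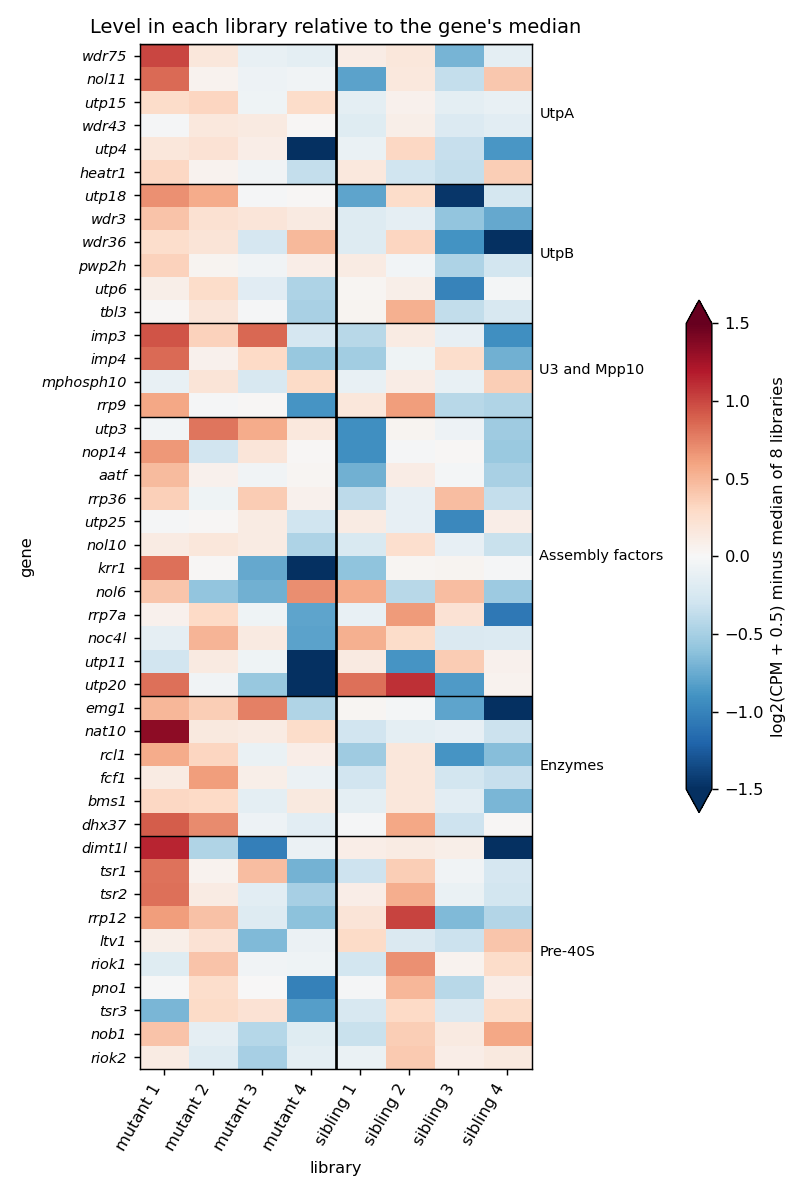
Level of each of the 44 genes in each library as log2(CPM + 0.5) minus the gene's median over the 8 libraries, mutants left of the heavy line and siblings right of it, with the colour scale ending at 1.5 log2 units on either side. Mutant 1 is red for most rows, and mutant 4, sibling 3 and sibling 4 hold most of the deep blue cells.

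At either end of their range, epidermal markers moved with the mean of the 44 genes. The summed CPM of 9 such markers was 86580, 61663, 13388 and 6094 in mutants 1 to 4, against 32955, 51348, 10546 and 4558 in siblings 1 to 4, and so was higher in the mutant of 4 of 4 pairs. Mutant 1, mutant 2 and sibling 2 had the highest sums and also the highest means of the 44 genes, and mutant 4 and sibling 4 had the lowest of both. The summed CPM of 6 endothelial markers ran the other way. It was lowest in mutant 1 (1184 CPM) and sibling 2 (1473 CPM), and highest in sibling 4 (3206 CPM) and mutant 4 (3027 CPM). Of the 9 epidermal markers 7 had a log2 fold change above 0, and 0 of the 9 were at 0 reads in all libraries. Gene by gene, 5 of the 9 were higher in the mutant of 4 of 4 pairs (8.0% of all tested genes were). At an edgeR unadjusted p under 0.05, 0 of the 9 were higher, or 5 with the replicate block (2.98% of all tested genes). The part of either marker set in the result was not tested. In replicates 3 and 4 alone 29 of the 44 genes were above 0 (median 0.12), where 49.8% of all tested genes were. In replicates 1 and 2 alone 32 were above 0 (median 0.18), where 46.1% of all tested genes were. The epidermal sum was higher in the mutant of each pair in either subset, so neither subset removes that difference. The enzymes were 6 of 6 above 0 in either subset, while the pre-40S genes were 3 of 10 above 0 in replicates 3 and 4 and 5 of 10 in replicates 1 and 2. These subsets were chosen after the values had been seen and hold 2 libraries a group.

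**Figure D5:**
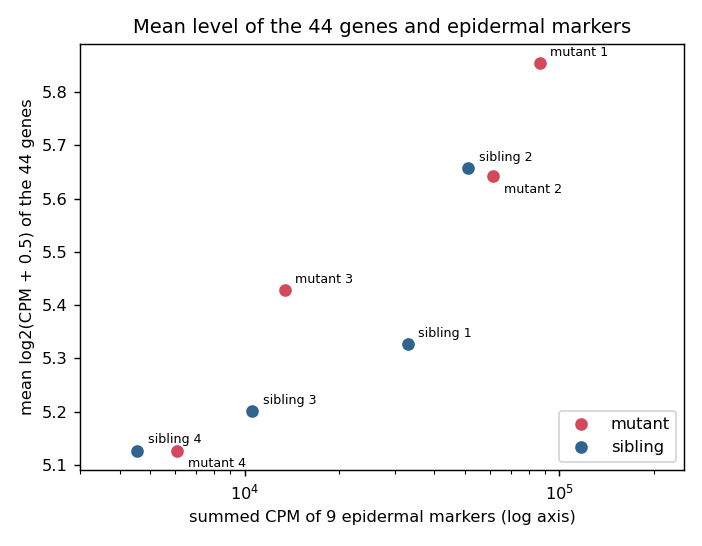
Mean log2(CPM + 0.5) of the 44 genes in each library against the summed CPM of 9 epidermal markers on a log axis, mutants and siblings in different colours. The means run from 5.13 at 4558 CPM in sibling 4 to 5.85 at 86580 CPM in mutant 1, and the order is not kept in between: mutant 3 (13388 CPM) has a higher mean than sibling 1 (32955 CPM).

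Markers of further tissues were summed in the same way. Summed liver and yolk markers were 373 to 2697 CPM in mutants, against 1046 to 5528 CPM in siblings. These sums overlapped, but gene by gene 13 of the 14 tested liver and yolk markers had a log2 fold change below 0 (median -3.13), 10 of the 14 were lower at an unadjusted p under 0.05 (1.67% of all tested genes were), and 12 of the 14 had all mutants below all siblings (1.83% of all tested genes had). Their mean log2(CPM + 0.5) was 1.7 to 3.64 in mutants, against 5.08 to 6.54 in siblings, without overlap. Muscle markers summed to 1845 to 6155 CPM in mutants, against 1129 to 5311 CPM in siblings. Of the 8 tested muscle markers 6 were above 0 on the log2 scale (median 0.48). The mutant was higher in 4 of 4 pairs for 4 of the 8 (8.0% of all tested genes). At an edgeR unadjusted p under 0.05, 0 of the 8 were higher, or 4 with the replicate block (2.98% of all tested genes). The sums of nerve markers did not overlap, at 61.9 to 76.4 CPM in mutants and 80.8 to 151 CPM in siblings. Gene by gene, 0 of the 7 tested nerve markers had all mutants below all siblings (1.83% of all tested genes had), so 0 of 7 says little. On the log2 scale 5 of the 7 were below 0 and 2 above (median -0.54). The mutant was lower in 4 of 4 pairs for 2 of the 7 (8.42% of all tested genes). At an edgeR unadjusted p under 0.05, 1 of the 7 was lower (1.67% of all tested genes). Their mean log2(CPM + 0.5) overlapped, at 2.83 to 2.91 in mutants and 2.65 to 3.60 in siblings. Erythroid markers were 217 to 583 CPM in mutants, against 271 to 948 CPM in siblings, and leukocyte markers 160 to 379 CPM in mutants, against 172 to 233 CPM in siblings. Of the sorted cells' own markers, the endothelial sum was 1184, 1642, 2429 and 3027 CPM in mutants 1 to 4. In siblings 1 to 4 it was 1555, 1473, 2964 and 3206 CPM. On the log2 scale 6 of the 6 tested genes were below 0 (median -0.12). The mutant was lower in 4 of 4 pairs for 3 of the 6 (8.42% of all tested genes). At an edgeR unadjusted p under 0.05, 0 of the 6 were lower (1.67% of all tested genes were). With the replicate block 2 were lower (2.88% were). For the venous and lymphatic list the sum was 1726 to 3343 CPM in mutants, against 1955 to 2687 CPM in siblings. Of its 9 genes 6 were below 0 (median -0.32), and the median difference within a pair was -0.48, -0.23, -0.38 and -0.01 in pairs 1 to 4. The mutant was lower in 4 of 4 pairs for 2 of the 9 and higher for 1 (8.42% and 8.0% of all tested genes). At an edgeR unadjusted p under 0.05, 1 of the 9 was lower and 0 were higher (1.67% and 1.33% of all tested genes). With the replicate block 2 were lower and 1 was higher (2.88% and 2.98%). The part of these cells in the differences of the 44 genes was not tested.

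Other genes of the pathway were set beside the 44. A further 22 small subunit factors included the U3 protein fibrillarin and the processome protein encoded by dcaf13. Of the 22, 19 were above 0 on the log2 scale (median 0.29), where 50.2% of all tested genes were. The mutant was higher in 4 of 4 pairs for 4 of the 22 (8.0% of all tested genes). At an edgeR unadjusted p under 0.05, 0 were higher or lower, where 1.33% and 1.67% of all tested genes were. With the replicate block 1 (dcaf13) was higher, where 2.98% were. Such small counts say little. dcaf13 came nearest, with 62.6, 60.3, 95.8 and 66.4 CPM in mutants, against 35.1, 59.0, 51.6 and 51.3 CPM in siblings, and every mutant library above every sibling library (log2 0.53, SE 0.24, edgeR unadjusted p = 0.0504, or 0.0377 with the block). nol7 (log2 0.45, SE 0.24) and utp23 (log2 0.42, SE 0.25) followed. Among 52 tested assembly factors of the 60S subunit 38 were above 0 (73.1%, median 0.11), against 65.9% of the 44 and 50.2% of all tested genes. The mutant was higher in 4 of 4 pairs for 5 of the 52 and lower for 4 (8.0% and 8.42% of all tested genes). At an unadjusted p under 0.05, 2 of the 52 were higher (3.85%, against 1.33% of all tested genes) and 2 lower (against 1.67% of all tested genes). With the replicate block 1 was higher and 4 were lower, where 2.98% and 2.88% of all tested genes were. gtpbp4, a nucleolar GTPase of the pre-60S particle, measured 274, 358, 242 and 233 CPM in mutants, against 406, 548, 483 and 383 CPM in siblings, so that every mutant was below every sibling (log2 -0.72, SE 0.21, edgeR unadjusted p = 0.0069). nsa2, another pre-60S protein, was at -0.75 (SE 0.23, edgeR unadjusted p = 0.008) and the 2 higher were nle1 at 0.65 (SE 0.26, edgeR unadjusted p = 0.034) and the helicase gene ddx24 at 0.70 (SE 0.30, edgeR unadjusted p = 0.0415), of which ddx24 was named after its value was seen. In contrast, 0 of 30 ribosomal protein genes of the 40S subunit, whose products the 44 factors assemble, were above 0 (median -0.27). Over all tested genes 50.2% were. In pair 2 the mutant was higher for 22 of the 30, against 0 of the 30 in pairs 1, 3 and 4. The mutant was lower in 4 of 4 pairs for 8 of the 30, where 8.42% of all tested genes were so. At an unadjusted p under 0.05, 1 of the 30 was lower, where 1.67% of all tested genes were. With the replicate block 5 were lower, where 2.88% were. The gene lower without the block, rps9, measured 516, 678, 557 and 383 CPM in mutants, against 770, 812, 824 and 784 CPM in siblings, with no overlap (log2 -0.58, SE 0.20, edgeR unadjusted p = 0.017). The mean log2(CPM + 0.5) of these 30 genes was 7.99, 8.86, 8.43 and 7.78 in mutants 1 to 4, against 8.49, 8.77, 8.66 and 8.40 in siblings 1 to 4, so that mutant 1, the highest library for the assembly factors, was among the lowest for the proteins they assemble. The difference between these sets was not tested, and their genes share the same libraries.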

How the data were processed

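RNA was sequenced from 8 libraries, 4 mutant and 4 sibling. The authors deposited whole-number read counts per Ensembl gene, which were used here, and a table named as normalised, batch-corrected log2 CPM. All 260160 deposited log2 values equalled log2(CPM + 1) of the counts (tolerance 1e-09), so they hold no batch correction and were not used further. The submitters' processing notes name Subread 2.0.0, FastQC, edgeR and featureCounts, and the build GRCz11. The strand setting is not given in the sources used here, so reads of overlapping or antisense genes may be shared.

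Genes were filtered with edgeR 4.0.16 in R 4.3.3 (filterByExpr, minimum count 10, minimum total 15), scaled by TMM and fitted by robust quasi-likelihood on the group alone. Fold changes are mutant over sibling, p-values are two-sided, CPM are TMM-scaled, and intervals use the fit's degrees of freedom. Each SE was worked back from the test, as the absolute log2 fold change over the square root of its F value. The SEs and the intervals built on them are therefore approximate. The procedure was also run on simulated counts, at the spread of these libraries and at a lower one. A required outcome was set only at the lower spread, and the outcomes are not given here. Symbols came from a name table, which names 29201 of 32520 identifiers; pwp2h and dimt1l were matched as PWP2 and DIMT1. Of 218 symbols on the other lists 182 (83.5%) matched. From the 60S list dhx30, midn and zgc:110540 were left out as not, or not surely, 60S factors. Genes, roles and lists were chosen with earlier results of these data known. Library values are given for the 10 genes with the smallest p among those higher and the 4 among those lower, and for others chosen after their values were seen. Promoter motifs were not searched.

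Counts of same-group replicates differed by 121 to 897 times what sampling noise gives (chi-square over its degrees of freedom). Same-numbered libraries deviated together (correlation over all tested genes 0.18 to 0.30 in 4 of 4 pairs, each over 0.1). The numbers were therefore taken as pairs from the data, not from the labels, and the fit was repeated with the number as a block. Mutant 1 with sibling 2 and mutant 2 with sibling 1 also passed 0.1 (0.15 each), so that cut alone does not single out the pairs. Each of the 8 libraries correlated best with the one of its own number. Further alternatives were RLE scaling, library totals, no filter, DESeq2 1.42.0, limma-voom 3.58.1 with quality weights, leaving out libraries, and other pseudocounts.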

Additional observations from a re-analysis of the deposited data

Results flagged for a closer look

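In 104 groups of 4 libraries (the 44 genes, their means by role and ddx21, in mutants and in siblings) 10 held a library far from the other 3 by Dixon's test at its 95% critical value, which compares a library's gap to the nearest other with the group's whole range. Chance flags about 1 in 20 groups. Mutant 1 was high for nat10 (90.5 CPM, against 38.5 to 42.9 CPM in the other mutants) and for nol11 (162 CPM, against 84.7 to 92.7 CPM). Mutant 4 was low for utp4 (19.6 CPM, against 83.9 to 91.3 CPM) and nol10 (22.3 CPM, against 33.6 to 34.8 CPM). Mutant 3 was low for utp15 (76.1 CPM, against 95.9 to 99.1 CPM). Among siblings, sibling 2 was high for wdr43 (278 CPM, against 226 to 235 CPM) and fcf1 (50.1 CPM, against 34.8 to 36.4 CPM). Sibling 1 was low for krr1 (18.7 CPM, against 28.3 to 29.4 CPM), sibling 3 for utp6 (32.7 CPM, against 64.8 to 70.5 CPM) and sibling 4 for dimt1l (1.16 CPM, against 12.4 to 12.7 CPM).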

How the results depend on the processing

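None of the 44 genes was called under any alternative run, but few genes were called at all, so 0 of 44 says little. DESeq2 called 62 of 18549 tested genes, edgeR with no filter on low counts 1 of 29097 and edgeR on replicates 1 and 2 alone 1 of 20279. The reported fit called 0, and 556 genes had an unadjusted p under 0.05 there. The replicate block called 0 genes and changed no call. It raised the genes at an unadjusted p under 0.05 to 1086, with 2.98% of all tested genes higher, and gave 6 of the 44 higher and a median of 0.18. The count of 5 genes higher at an unadjusted p under 0.05 was the least stable result. It was 3 with limma-voom (1.83% of all tested genes in that run). It was 2 without mutants 1 and 4 and sibling 4, the lowest quality weights (1.02%). In replicates 1 and 2 alone it was 0 (1.9%) and in replicates 3 and 4 alone 3 (1.64%). At that p 1 of the 44 was lower without the 3 libraries of lowest weight, and 1 in replicates 3 and 4 alone. Without single libraries the count higher ran from 1 (without sibling 1 or sibling 4) to 6, with 2 without mutant 1 and 3 without mutant 2, mutant 3 or sibling 3. Over all tested genes 0.961% (without mutant 1) to 1.66% (without mutant 4) were higher in these runs. The genes above 0 numbered 26 to 32 under the alternatives other than single libraries, and 25 to 35 without single libraries. Leaving out mutant 1 gave their lowest median, 0.06, and leaving out mutant 4 the highest, 0.28, and the difference of mean levels from 0.08 to 0.32 without the same libraries. No filter moved the median of all genes to -0.11. The 6 enzyme genes were above 0 under every alternative run. Between 38 and 41 of the 44 kept their sign without single libraries, 35 without the 3 libraries of lowest weight, 39 in replicates 1 and 2 alone and 36 in replicates 3 and 4 alone. Of the 14 genes followed one by one, signs turned for utp11 (0.076 without the 3 libraries of lowest weight, 0.21 in replicates 1 and 2 alone) and nob1 (0.092 in replicates 1 and 2 alone), and the cause was not tested. With library totals 12 genes were higher in the mutant of 4 of 4 pairs, 11 of them shared with the 13 reported. The fewest reads of a gene in a library were 54, for dimt1l, which also had the widest SE, 0.73.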
